A study of Homo sapiens with 9 samples.

Results

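The epidermal growth factor receptor family, also called the ErbB family, was followed across 9 RNA-seq libraries through 10 genes. They were 3 receptors, EGFR, ERBB2 and ERBB3, and 7 ligands, AREG, EREG, HBEGF, TGFA, BTC, EPGN and NRG1. Members were taken by gene symbol from the 27548 rows of the deposited expression table, and each symbol stood on 1 row. All libraries came from MDA-MB-231, a long-used cell line of human breast adenocarcinoma of the triple-negative kind, which lacks the oestrogen and progesterone receptors and amplified ERBB2. The TLX+siTLX group held cells that overexpressed the nuclear receptor TLX, the product of NR2E1, and were given an siRNA against TLX (libraries S7 to S9). The TLX+siCTL group held the TLX-overexpressing cells with a control siRNA (S4 to S6). The CTL+siCTL group held control cells with the control siRNA (S1 to S3). Transfection lasted 48 h in all 3 groups. The 3 control titles include PC3, a name shared with a prostate line, although the cell line stated for these samples is MDA-MB-231. The sources used here do not say how TLX was overexpressed, whether the lines were single clones, or whether replicates were separate cultures. P-values therefore measure the spread between these libraries, which may be technical, and any other difference between the TLX-overexpressing and the control cells cannot be told apart from TLX. No control cells were given the siRNA against TLX, so its effects on other genes cannot be told apart from those of lower TLX.

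ErbB receptors are membrane tyrosine kinases that pair with themselves or with each other when a ligand binds. EGFR binds AREG, EREG, HBEGF, TGFA, BTC, EPGN and EGF. ERBB2 has no known soluble ligand and acts as the preferred partner of the others, and ERBB3, whose kinase is weak, binds the neuregulins such as NRG1. The ligands are made as membrane-bound precursors and are released by cell surface proteases of the ADAM family. The paired receptors feed the RAS-MAPK and PI3K-AKT cascades, and EGFR is a characteristic receptor of triple-negative breast cancer lines.

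The values were log2 CPM, read counts scaled to the size of the library, in which 1 unit is a doubling. Effective library sizes recovered from the steps between low values were 73.8 to 91.8 M reads, and the lowest value, a count of 0, was -5.33 in every library. NR2E1 was at -2.61, -3.40 and -1.77 log2 CPM in TLX+siTLX, at 0.28, -0.84 and 0.23 in TLX+siCTL, and at -4.59, -4.28 and -4.50 in CTL+siCTL. Its level thus followed the labels, with no overlap between the groups. Of the 9 libraries S9 stood furthest apart, with a limma library weight of 0.490 against 0.631 to 1.56 in the others. All 6 markers of a mesenchymal-like breast line were expressed (mean log2 CPM of at least 1), with VIM at 10.0 to 10.8 log2 CPM, and ESR1, a marker of luminal breast cells, stayed at -2.88 to -1.78. Of the 5 luminal markers 2 were expressed, GATA3 at 2.12 to 4.36 and SPDEF at 2.88 to 5.49 log2 CPM. Of 8 prostate markers 2 were expressed, among them SLC45A3, and the sum of all 8 was 42.3 to 44.7 CPM in TLX+siTLX, 39.9 to 42.5 in TLX+siCTL and 39.8 to 42.4 in CTL+siCTL. The prostate-defining KLK3 and HOXB13 did not exceed -3.59 log2 CPM in any library.

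The promoters of the 4 EGFR ligands with the highest levels are shown because these genes lie close to or far from each other in the genome and took different courses across the groups. Each window runs from 250 bases before to 50 bases after the start of the gene in the RefSeq annotation of GRCh38.p14, on the strand of the gene. AREG lies at chr4:74444886-74445185 (+ strand), EREG at chr4:74364895-74365194 (+ strand), HBEGF at chr5:140346554-140346853 (- strand) and TGFA at chr2:70553777-70554076 (- strand). Capitals mark matches to 6 motifs searched on both strands, namely the half-site to which TLX is known to bind (AAGTCA), the cyclic AMP response element core (TGACGT), the AP-1 site (TGANTCA), the TATA box (TATAAA), the GC box (GGGCGG) and the CCAAT box (CCAAT).
AREG: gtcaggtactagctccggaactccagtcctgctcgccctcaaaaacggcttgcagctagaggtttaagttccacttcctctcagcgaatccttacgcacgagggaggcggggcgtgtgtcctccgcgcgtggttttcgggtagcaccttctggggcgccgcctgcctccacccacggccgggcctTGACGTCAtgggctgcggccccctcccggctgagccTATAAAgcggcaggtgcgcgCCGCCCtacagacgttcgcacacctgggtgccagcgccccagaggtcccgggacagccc
EREG: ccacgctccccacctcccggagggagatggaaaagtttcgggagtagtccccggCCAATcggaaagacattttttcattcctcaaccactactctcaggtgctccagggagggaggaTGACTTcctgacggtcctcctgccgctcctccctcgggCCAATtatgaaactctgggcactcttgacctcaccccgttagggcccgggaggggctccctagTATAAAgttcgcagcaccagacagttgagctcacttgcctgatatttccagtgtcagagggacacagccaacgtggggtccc
HBEGF: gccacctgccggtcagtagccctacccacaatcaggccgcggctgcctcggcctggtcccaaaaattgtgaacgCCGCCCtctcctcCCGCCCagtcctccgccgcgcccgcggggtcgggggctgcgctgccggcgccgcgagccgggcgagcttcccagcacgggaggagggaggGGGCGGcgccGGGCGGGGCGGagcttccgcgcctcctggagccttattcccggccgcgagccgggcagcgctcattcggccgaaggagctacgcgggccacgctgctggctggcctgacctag
TGFA: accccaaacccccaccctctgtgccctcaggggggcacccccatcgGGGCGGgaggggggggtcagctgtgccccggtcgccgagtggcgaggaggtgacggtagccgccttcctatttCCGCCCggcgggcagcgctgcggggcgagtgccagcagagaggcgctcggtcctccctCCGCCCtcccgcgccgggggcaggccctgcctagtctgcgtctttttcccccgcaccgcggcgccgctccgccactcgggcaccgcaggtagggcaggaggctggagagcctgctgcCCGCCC

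The AREG window held the cyclic AMP response element core on both strands, in overlapping matches whose first bases were at -65 and -63 from the gene start, with a TATA box at -29 and a GC box at -9. The EREG window held 1 TLX half-site on the opposite strand at -133, CCAAT boxes at -196 and -95 and a TATA box at -32. The HBEGF window held 5 GC boxes, of which those at -63 and -58 overlap, and the TGFA window held 4. Neither of these windows held any other motif searched. The TGFA window not shown, at chr2:70553397-70553696 (- strand), held no match to any motif searched, and its GC content was 63.0%. A TLX half-site was present in 12.5% of all 35116 windows of this length, the cyclic AMP response element core in 7.98%, the AP-1 site in 7.71%, the TATA box in 11.5%, the GC box in 45.0% and the CCAAT box in 34.6%. GC content was 66.3% for AREG, 57.7% for EREG, 75.0% for HBEGF and 75.3% for the TGFA window shown, against a median of 58.7% over all windows. Of the 10 members 8 had a window that was searched, and among these the TLX half-site was found in that of EREG. A match to letters describes the sequence and does not show that a factor binds there.

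**Figure D1:**
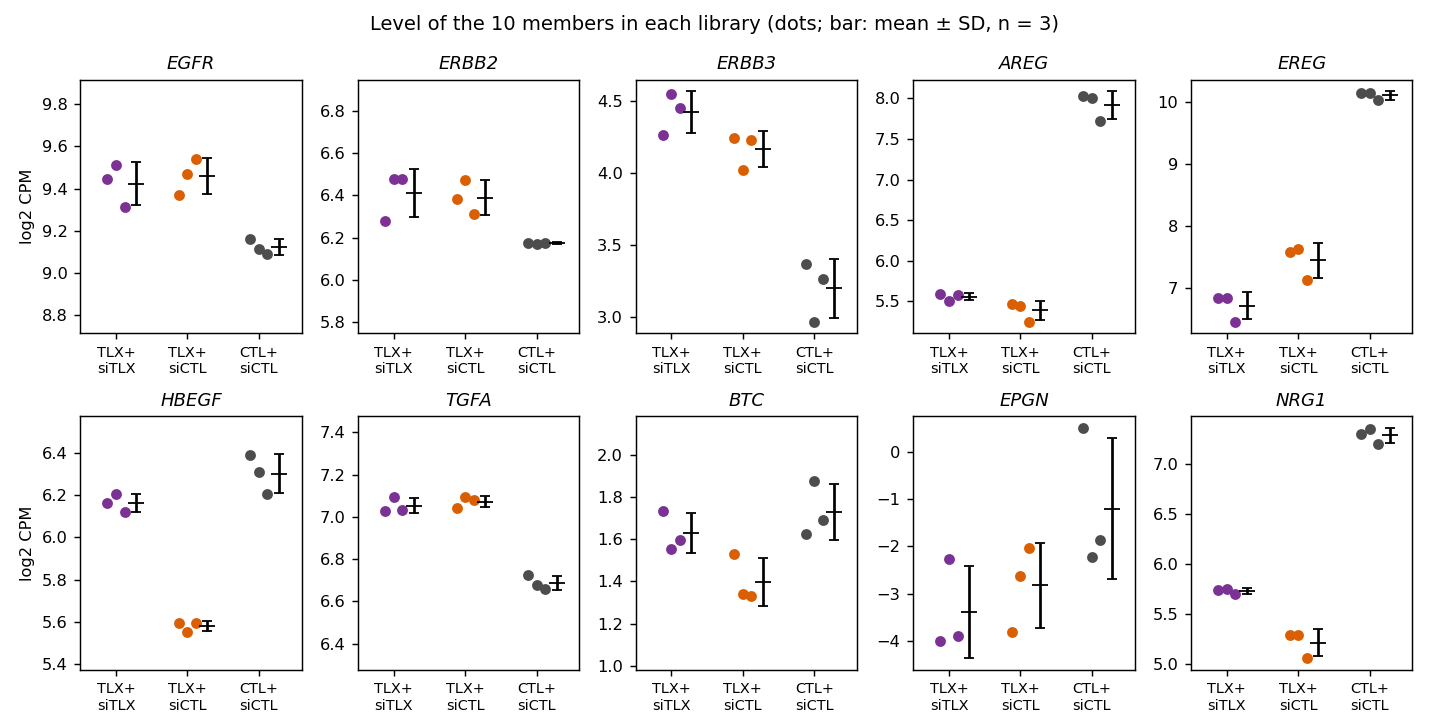
Log2 CPM of the 10 members in every library, with 1 panel per gene and the groups TLX+siTLX, TLX+siCTL and CTL+siCTL from left to right; points are libraries and bars are group means. AREG, EREG and NRG1 stood lower in all 6 libraries of the TLX-overexpressing cells than in the 3 control libraries, while EGFR, ERBB3 and TGFA stood higher.

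The first comparison set TLX+siCTL cells against CTL+siCTL cells, and asked how the family differed between TLX-overexpressing and control cells. The 3 receptors rose, and among the ligands AREG, EREG, HBEGF and NRG1 fell and TGFA rose. With limma's moderated test and Benjamini-Hochberg adjustment over all rows (threshold 0.05), 4 of the 10 members were higher, 4 were lower and 2 did not pass, while 30.1% of all rows and 56.6% of the 12564 expressed rows were called. By direction, 15.0% of all rows were higher and 15.1% lower, and of the expressed rows 29.3% and 27.4%. The median log2 fold change of the 10 members was -0.53, against 0.01 over the expressed rows. In 9 of the 10 the libraries of the groups did not overlap, which held for 41.4% of all rows and 71.6% of the expressed ones.

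In the receptors, the level of EGFR (ENSG00000146648, GRCh38 chr7:55019021-55211628) was 9.45, 9.51 and 9.31 log2 CPM in TLX+siTLX, 9.37, 9.47 and 9.54 in TLX+siCTL, and 9.16, 9.11 and 9.09 in CTL+siCTL. Every library of the TLX-overexpressing cells was above every control library. EGFR rose by a log2 fold change of 0.34 ± 0.06 (SE, adjusted p = 0.00288) in TLX+siCTL relative to CTL+siCTL, which is 1.26-fold. Its mean over the 9 libraries was above that of 99.5% of all rows.

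ERBB2 (ENSG00000141736, chr17:39687914-39730426), the ligand-less partner receptor, was at 6.28, 6.48 and 6.48 log2 CPM in TLX+siTLX, 6.38, 6.47 and 6.31 in TLX+siCTL, and 6.17, 6.17 and 6.18 in CTL+siCTL. The control libraries lay within a few hundredths of each other, and the others stood above them. ERBB2 rose by 0.22 ± 0.06 (SE, adjusted p = 0.0268) in TLX+siCTL relative to CTL+siCTL. This call was lost when S1, S2, S3, S4 or S5 was left out, with log2 fold changes of 0.17 to 0.22 and adjusted p of 0.0794 to 0.103. Exons of MIEN1 and PGAP3 on the opposite strand overlap those of ERBB2, at mean levels of 4.80 and 2.77 log2 CPM, and the sources used here do not say whether the authors' counting used strand.

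ERBB3 (ENSG00000065361, chr12:56076799-56103505), the neuregulin receptor, was at 4.27, 4.55 and 4.45 log2 CPM in TLX+siTLX, 4.25, 4.02 and 4.23 in TLX+siCTL, and 3.36, 2.97 and 3.26 in CTL+siCTL. The groups of TLX-overexpressing cells did not overlap the controls. Its log2 fold change of 0.97 ± 0.12 (SE, adjusted p = 0.000259) was the largest rise among the 10 members in this comparison, at 1.96-fold.

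In the EGFR ligands, the level of AREG (amphiregulin, ENSG00000109321, chr4:74445134-74455009) was 5.59, 5.51 and 5.58 log2 CPM in TLX+siTLX, 5.47, 5.44 and 5.25 in TLX+siCTL, and 8.03, 8.001 and 7.72 in CTL+siCTL. More than 2 log2 units separated each library of the TLX-overexpressing cells from each control library. AREG fell, with a log2 fold change of -2.53 ± 0.09 (SE, adjusted p = 4.58e-07) in TLX+siCTL relative to CTL+siCTL, a 5.78-fold lower level. In bulk RNA, fewer cells that express a gene and less of its RNA per cell cannot be told apart.

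EREG (epiregulin, ENSG00000124882, chr4:74365143-74388751) was at 6.85, 6.83 and 6.46 log2 CPM in TLX+siTLX, 7.57, 7.63 and 7.13 in TLX+siCTL, and 10.14, 10.15 and 10.03 in CTL+siCTL. The 3 groups were fully separated, with the controls highest and TLX+siTLX lowest. Relative to CTL+siCTL, EREG fell by 2.66 ± 0.14 (SE, adjusted p = 3.28e-06) in TLX+siCTL, a 6.32-fold lower level.

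HBEGF (heparin-binding EGF-like growth factor, ENSG00000113070, chr5:140332843-140346631) was at 6.16, 6.20 and 6.12 log2 CPM in TLX+siTLX, 5.59, 5.55 and 5.59 in TLX+siCTL, and 6.39, 6.31 and 6.20 in CTL+siCTL. TLX+siCTL was the low group, and each of its libraries lay below all 6 others. The fall in TLX+siCTL relative to CTL+siCTL was -0.72 ± 0.05 (SE, adjusted p = 9.82e-06), or 1.65-fold.

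TGFA (transforming growth factor alpha, ENSG00000163235, chr2:70447280-70554193) was at 7.03, 7.10 and 7.03 log2 CPM in TLX+siTLX, 7.04, 7.09 and 7.08 in TLX+siCTL, and 6.72, 6.68 and 6.66 in CTL+siCTL. It was the ligand that rose, by 0.39 ± 0.03 (SE, adjusted p = 4.18e-05) in TLX+siCTL relative to CTL+siCTL, with no overlap between these groups.

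BTC (betacellulin, ENSG00000174808, chr4:74744759-74794686) was low, at 1.73, 1.55 and 1.60 log2 CPM in TLX+siTLX, 1.53, 1.34 and 1.33 in TLX+siCTL, and 1.62, 1.88 and 1.69 in CTL+siCTL. Its libraries did not overlap between TLX+siCTL and CTL+siCTL, but the log2 fold change of -0.33 ± 0.11 (SE, adjusted p = 0.0571) did not pass. It did pass without S1 (-0.38), without S4 (-0.40) and without S7 (-0.33). EPGN (epigen, ENSG00000182585, chr4:74308473-74315307) was near the lower limit, at -4.001, -2.27 and -3.90 log2 CPM in TLX+siTLX, -3.81, -2.63 and -2.04 in TLX+siCTL, and 0.50, -2.23 and -1.88 in CTL+siCTL. In reads estimated from the values, these are 3.06, 14.0 and 3.67 in TLX+siTLX, 4.29, 10.7 and 17.4 in TLX+siCTL, and 112.3, 14.4 and 18.3 in CTL+siCTL. Control library S1 thus held most EPGN reads of its group, and the log2 fold change of -1.62 ± 0.82 (SE, adjusted p = 0.190) of TLX+siCTL relative to CTL+siCTL did not pass. Without S1 it was -0.77 (adjusted p = 0.520).

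NRG1 (neuregulin 1, ENSG00000157168, chr8:31639386-32767959), a ligand of ERBB3 and not of EGFR, was at 5.74, 5.75 and 5.70 log2 CPM in TLX+siTLX, 5.29, 5.30 and 5.06 in TLX+siCTL, and 7.30, 7.35 and 7.20 in CTL+siCTL. All 3 groups were separated, with TLX+siCTL lowest. NRG1 fell by 2.06 ± 0.07 (SE, adjusted p = 4.30e-07) in TLX+siCTL relative to CTL+siCTL, a 4.18-fold lower level, while its receptor ERBB3 was the receptor with the largest rise. The sum of the 5 luminal markers was 27.3 to 32.8 CPM in TLX+siTLX, 18.5 to 20.5 in TLX+siCTL and 47.9 to 52.2 in CTL+siCTL, and the sum of the 6 mesenchymal-like markers was 5491 to 5800, 4140 to 4198 and 3717 to 3822 CPM in the same order. The expressed luminal markers ran opposite ways, with SPDEF averaging 3.48, 3.19 and 5.45 log2 CPM and GATA3 4.24, 3.30 and 2.37 log2 CPM in that order of groups. The part of these shifts in the ligand differences was not tested.

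**Figure D2:**
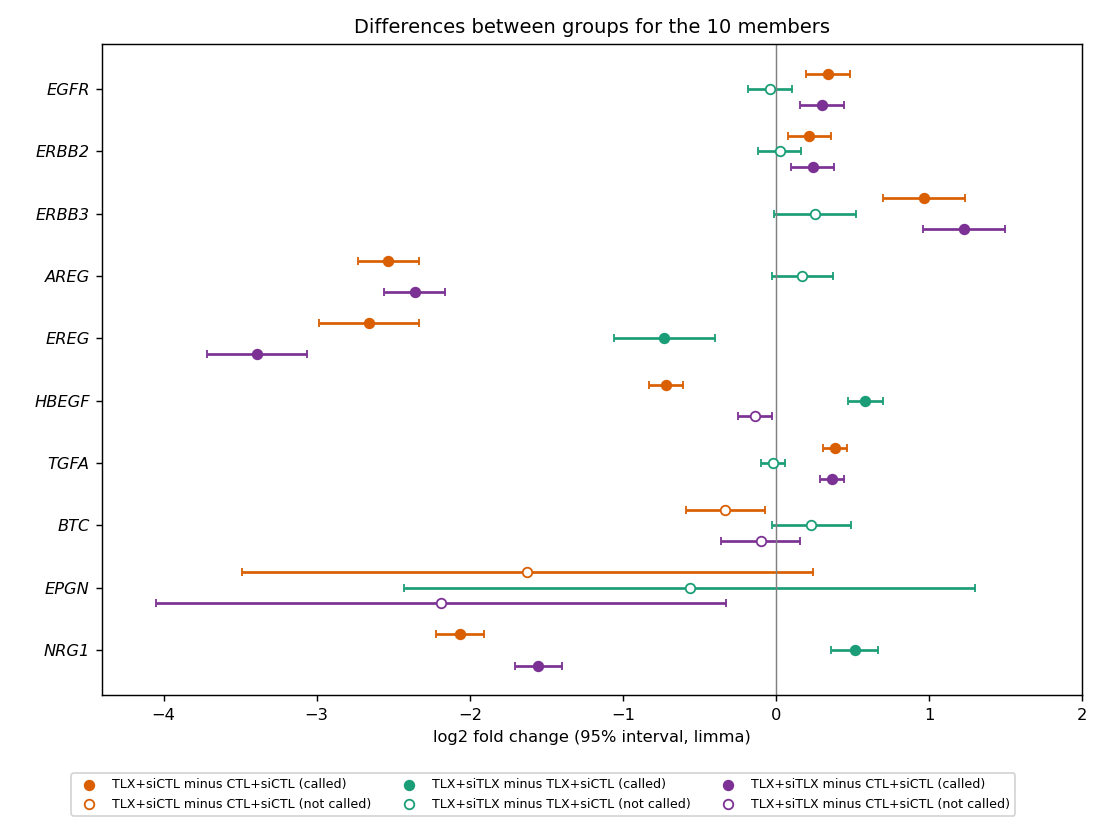
Log2 fold change of the 10 members in the 3 comparisons, with bars of the 95% confidence interval from the limma fit; filled points passed an adjusted p of 0.05. AREG, EREG and NRG1 lay between -3.39 and -1.55 in both comparisons with control cells, and HBEGF and NRG1 lay above 0 in TLX+siTLX relative to TLX+siCTL.

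The second comparison set TLX+siTLX cells against TLX+siCTL cells, and asked how the family differed in the TLX-overexpressing cells after the siRNA against TLX. HBEGF and NRG1 rose and EREG fell. The 3 receptors, AREG, TGFA, BTC and EPGN did not pass. The counts were 2 of 10 members higher, 1 lower and 7 not called, while 23.7% of all rows and 45.8% of the expressed rows were called. By direction, 12.7% of all rows were higher and 10.9% lower, and of the expressed rows 23.8% and 22.0%. The libraries did not overlap in 6 of the 10 members, against 33.9% of all rows and 58.3% of the expressed ones.

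HBEGF rose by a log2 fold change of 0.58 ± 0.05 (SE, adjusted p = 6.71e-05), or 1.498-fold, and averaged 6.16 ± 0.04 log2 CPM in TLX+siTLX, 5.58 ± 0.02 in TLX+siCTL and 6.30 ± 0.09 in CTL+siCTL (SD, n = 3 each). NRG1 rose by 0.51 ± 0.07 (SE, adjusted p = 0.000740), or 1.43-fold, to 5.73 ± 0.03 log2 CPM in TLX+siTLX, against 5.22 ± 0.14 in TLX+siCTL and 7.28 ± 0.08 in CTL+siCTL (SD, n = 3 each). These ligands thus moved opposite to their direction in TLX+siCTL relative to CTL+siCTL. Both comparisons share the TLX+siCTL libraries, so the opposite signs are not independent of each other.

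EREG fell further, by 0.73 ± 0.14 (SE, adjusted p = 0.00617) in TLX+siTLX relative to TLX+siCTL, and averaged 6.71 ± 0.22 log2 CPM in TLX+siTLX, 7.44 ± 0.28 in TLX+siCTL and 10.10 ± 0.07 in CTL+siCTL (SD, n = 3 each). This call was lost when the fit held the 6 libraries of these groups alone (-0.73, adjusted p = 0.0556). AREG, its close neighbour on chromosome 4, had a log2 fold change of 0.17 ± 0.09 (SE, adjusted p = 0.225; 95% interval -0.03 to 0.37). The interval of EREG, -1.06 to -0.40, lay apart from it. Without S9 the values in TLX+siTLX relative to TLX+siCTL were -0.60 for EREG, 0.60 for HBEGF and 0.53 for NRG1 (adjusted p = 0.0282, 0.000573 and 0.00469).

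The ratio of EREG to AREG in CPM expressed the same contrast within each library. It was 2.39, 2.50 and 1.85 in TLX+siTLX, 4.29, 4.57 and 3.67 in TLX+siCTL, and 4.30, 4.43 and 4.94 in CTL+siCTL. The ratio in TLX+siTLX lay below that of all 6 other libraries, while the other groups overlapped. On the log2 scale the difference of TLX+siTLX from TLX+siCTL was -0.90 and that from CTL+siCTL -1.03, each with an exact two-sided permutation p of 0.1, the smallest that 3 against 3 libraries allow. TLX+siCTL differed from CTL+siCTL by -0.13 (exact permutation p = 0.4). The ratio was formed from the EREG and AREG values given above, so its p-values describe those values again and are no separate test.

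For the members that did not pass, the intervals bound the difference of TLX+siTLX from TLX+siCTL. EGFR had a log2 fold change of -0.04 (95% interval -0.18 to 0.10, adjusted p = 0.738). ERBB2 was at 0.02 (-0.12 to 0.16, adjusted p = 0.869) and TGFA at -0.02 (-0.10 to 0.06, adjusted p = 0.769). The signs of EGFR and ERBB2 turned in some of the settings tried. ERBB3 was at 0.26 (-0.01 to 0.52, adjusted p = 0.169) and BTC at 0.23 (-0.03 to 0.49, adjusted p = 0.204), so a rise of up to about 0.5 log2 units is within their intervals. EPGN, with an interval of -2.43 to 1.30, gave no usable bound.

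The third comparison set TLX+siTLX cells against CTL+siCTL cells, and asked what difference from control cells was present after the siRNA. EGFR, ERBB2, ERBB3 and TGFA rose, AREG, EREG and NRG1 fell, and HBEGF, BTC and EPGN did not pass. Thus 4 of the 10 members were higher and 3 lower, while 34.6% of all rows and 63.6% of the expressed rows were called. Of all rows 17.7% were higher and 17.0% lower, and of the expressed rows 32.4% and 31.2%. The libraries did not overlap in 9 of the 10 members, against 42.2% of all rows and 71.1% of the expressed ones. It shares libraries with each of the other comparisons and is not independent of them.

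EREG fell, with a log2 fold change of -3.39 ± 0.14 (SE, adjusted p = 5.12e-07), a 10.5-fold lower level, and AREG fell by 2.36 ± 0.09 (SE, adjusted p = 2.68e-07), or 5.14-fold. NRG1 fell by 1.55 ± 0.07 (SE, adjusted p = 5.57e-07), or 2.93-fold. ERBB3 rose by 1.23 ± 0.12 (SE, adjusted p = 4.60e-05), or 2.34-fold, and TGFA by 0.37 ± 0.03 (SE, adjusted p = 3.92e-05). EGFR rose by 0.30 ± 0.06 (SE, adjusted p = 0.00470) and ERBB2 by 0.24 ± 0.06 (SE, adjusted p = 0.0146). The ERBB2 call was again lost without S1, S2, S3, S8 or S9 (0.21 to 0.24, adjusted p 0.0506 to 0.0638). HBEGF was at -0.14 ± 0.05 (SE, adjusted p = 0.0607; 95% interval -0.25 to -0.03) and passed without S3 (-0.19, adjusted p = 0.0112). Over the 3 groups together, 8 of the 10 members passed limma's moderated F test, all but BTC (adjusted p = 0.100) and EPGN (adjusted p = 0.131), where 40.7% of all rows and 75.1% of the expressed rows passed.

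Levels of different genes were compared per length, as CPM per kb of the gene's merged exons. In TLX+siTLX the order was EGFR at 54.9 ± 3.8, AREG at 28.6 ± 0.9, TGFA at 26.8 ± 0.7, HBEGF at 23.7 ± 0.7 and EREG at 18.5 ± 2.7 CPM per kb (SD, n = 3). ERBB2 at 8.27, NRG1 at 4.68, ERBB3 at 2.38, BTC at 1.10 and EPGN at 0.0619 CPM per kb followed, and no neighbours in this order overlapped. In TLX+siCTL it was EGFR at 56.4 ± 3.3, then EREG at 30.8 ± 5.6, TGFA at 27.1 ± 0.5 and AREG at 25.5 ± 2.1, of which EREG overlapped TGFA and TGFA overlapped AREG, then HBEGF at 15.8 ± 0.3 CPM per kb. ERBB2 at 8.13, NRG1 at 3.29, ERBB3 at 1.99, BTC at 0.938 and EPGN at 0.0876 CPM per kb came below. In CTL+siCTL, by contrast, EREG at 192.6 ± 8.8 and AREG at 147.6 ± 16.8 CPM per kb stood above EGFR at 44.5 ± 1.1. HBEGF at 26.2, TGFA at 20.7, NRG1 at 13.7, ERBB2 at 6.99, BTC at 1.18, ERBB3 at 1.02 and EPGN at 0.349 CPM per kb followed, with BTC and ERBB3 overlapping. EGFR was thus the member with the highest level in the TLX-overexpressing cells and the third in the controls. With the longest transcript as length, ERBB2 was at 17.3, 17.0 and 14.6 CPM per kb in TLX+siTLX, TLX+siCTL and CTL+siCTL, NRG1 at 8.95, 6.29 and 26.3, ERBB3 at 3.64, 3.04 and 1.56, and EPGN at 0.0939, 0.133 and 0.530. ERBB3 then stood above BTC in all 3 groups, AREG at 33.8 stood above TGFA at 31.2 CPM per kb in TLX+siCTL, and NRG1 stood above TGFA at 23.9 CPM per kb in CTL+siCTL.

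The 6 EGFR ligands together came to 98.8 ± 3.3 CPM per kb in TLX+siTLX, 100.3 ± 7.3 in TLX+siCTL and 388.6 ± 27.5 in CTL+siCTL (SD, n = 3 each). The 3 receptors together came to 65.6 ± 3.8, 66.5 ± 3.1 and 52.5 ± 1.2 CPM per kb in the same order, and EGFR made up 83.7%, 84.7% and 84.7% of them. EREG supplied 18.7% ± 2.1 of the ligand sum in TLX+siTLX, 30.6% ± 3.5 in TLX+siCTL and 49.6% ± 1.4 in CTL+siCTL (SD, n = 3 each). AREG supplied 28.99%, 25.4% and 37.9% in that order of groups, TGFA 27.1%, 27.1% and 5.35%, and HBEGF 24.0%, 15.9% and 6.73%. In the controls EREG and AREG made up most of the ligand RNA, whereas in TLX+siTLX the shares of AREG, TGFA, HBEGF and EREG were more even. BTC and EPGN each stayed near or under 1% in all groups.

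**Figure D3:**
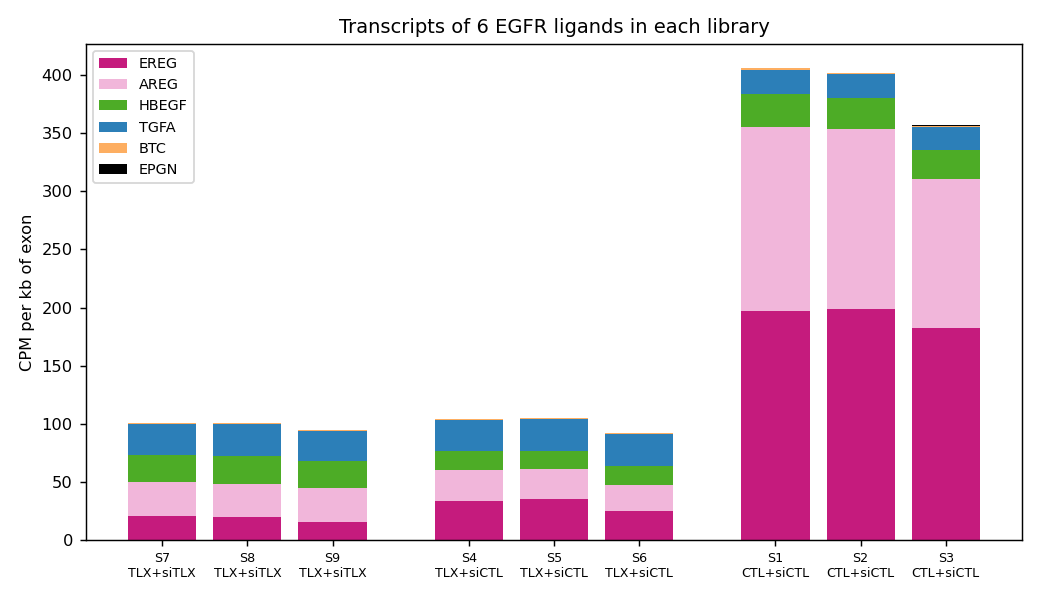
Summed level of the 6 EGFR ligands in each library, in CPM per kb of merged exons, stacked by gene; libraries S7 to S9 are TLX+siTLX, S4 to S6 TLX+siCTL and S1 to S3 CTL+siCTL. The control bars reach 356.9 to 406.7 CPM per kb, and the 6 others 91.9 to 105.2, with the EREG, AREG and HBEGF parts smaller in those 6 than in the controls.

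NRG1, which signals through ERBB3 and not EGFR, was at 0.400 of the TGFA level in CPM in TLX+siTLX, 0.277 in TLX+siCTL and 1.51 in CTL+siCTL. It therefore stood above TGFA in reads in the controls and below it in the other groups. Its rank in the controls depended on length. Per kb of merged exons NRG1 was below TGFA there, at 13.7 against 20.7 CPM per kb. With the longest transcript it was above, at 26.3 against 23.9 CPM per kb. Of the receptors and ligands of the family that are no members (ERBB4, EGF, NRG2, NRG3 and NRG4), none reached a mean log2 CPM of 1. The neuregulin receptor ERBB4, named here after its values were seen, was at 0.07, 1.08 and -1.04 log2 CPM in TLX+siTLX, -2.50, -1.40 and -3.22 in TLX+siCTL, and 0.22, -0.81 and -0.78 in CTL+siCTL. It was low and variable, and lowest in TLX+siCTL. ERBB4 fell by 1.92 ± 0.63 (SE, adjusted p = 0.0477) in TLX+siCTL relative to CTL+siCTL and rose by 2.41 ± 0.63 (SE, adjusted p = 0.0224) in TLX+siTLX relative to TLX+siCTL. Its first call was lost without S1, S2, S3, S4, S6 or S7, and its second without S3, S4, S6 or S8, after which 0 genes of this list were called in that direction. EGF, the ligand after which the family is named, had log2 fold changes of -0.03 for TLX+siCTL and 0.59 for TLX+siTLX relative to CTL+siCTL (adjusted p = 0.966 and 0.0637).

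The genes that release, carry or restrain the family were described in 5 further lists, by counts beside the shares of all expressed rows given above. Among 11 sheddases and cofactors, which cut the ligand precursors or govern the proteases that do, 6 rose and 3 fell in TLX+siCTL relative to CTL+siCTL (median log2 fold change 0.16). The siRNA step, TLX+siTLX relative to TLX+siCTL, had 7 risen and 0 fallen (median 0.37), and in TLX+siTLX relative to CTL+siCTL 7 rose and 2 fell (median 0.50). The rises in TLX+siCTL came to 3 without S6, and the 2 falls in TLX+siTLX relative to CTL+siCTL to 1 without any library but S8. ADAM19, a protease that can cut neuregulin, fell by 1.57 ± 0.07 (SE, adjusted p = 1.12e-06) in TLX+siCTL relative to CTL+siCTL and rose by 1.37 ± 0.07 (SE, adjusted p = 5.53e-06) in TLX+siTLX relative to TLX+siCTL. Like NRG1 and HBEGF, it was lowest in TLX+siCTL. ADAM12, a sheddase of HBEGF at a low level here, rose in both steps (TLX+siCTL relative to CTL+siCTL, then TLX+siTLX relative to TLX+siCTL), by 0.75 ± 0.22 and 1.22 ± 0.22 (SE, adjusted p = 0.0321 and 0.00409), and was 1.97 ± 0.22 above control cells in TLX+siTLX. The metalloprotease inhibitor TIMP3 rose by 0.90 ± 0.08 in TLX+siTLX relative to TLX+siCTL and by 1.43 ± 0.08 relative to CTL+siCTL (SE, adjusted p = 8.26e-05 and 1.86e-06). FRMD8, a cofactor of the protease ADAM17, rose by 0.56 ± 0.09 (SE, adjusted p = 0.00152) in TLX+siCTL relative to CTL+siCTL, and ADAM10, the main sheddase of BTC and EGF, was 1.03 ± 0.06 (SE, adjusted p = 3.34e-06) higher in TLX+siTLX than in CTL+siCTL. ADAM17 itself, named here after its values were seen, went the other way. Relative to CTL+siCTL its log2 fold change was -0.38 ± 0.06 in TLX+siCTL and -0.46 ± 0.06 in TLX+siTLX (SE, adjusted p = 0.00137 and 0.000355).

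Among 20 receptor inhibitors and endocytosis genes, 6 rose and 8 fell in TLX+siCTL relative to CTL+siCTL, 3 rose and 6 fell in TLX+siTLX relative to TLX+siCTL, and 3 rose and 11 fell in TLX+siTLX relative to CTL+siCTL (medians 0.03, -0.11 and -0.23). The falls in TLX+siCTL came to 5 without S1, S3, S4 or S5. ERRFI1, which binds and blocks the EGFR kinase, fell by 0.89 ± 0.05 (SE, adjusted p = 4.37e-06) in TLX+siCTL relative to CTL+siCTL. LRIG1, a membrane protein that promotes loss of ErbB receptors, rose in both steps, by 0.75 ± 0.09 and 0.56 ± 0.09 (SE, adjusted p = 0.000320 and 0.00283), and was 1.31 ± 0.09 above control cells in TLX+siTLX. Its relative LRIG3 fell by 0.46 ± 0.09 (SE, adjusted p = 0.00474) in TLX+siCTL relative to CTL+siCTL. Of the genes that sort internalised receptors, STAM fell by 0.48 ± 0.08 in TLX+siTLX relative to TLX+siCTL and fell by 0.79 ± 0.08 relative to CTL+siCTL (SE, adjusted p = 0.00241 and 6.03e-05). The ubiquitin ligase NEDD4 fell by 0.42 ± 0.10 (SE, adjusted p = 0.0156) in TLX+siTLX relative to TLX+siCTL, and the endocytic adaptor EPS15 was 0.62 ± 0.05 (SE, adjusted p = 2.57e-05) higher in TLX+siTLX than in CTL+siCTL.

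Among 10 genes of receptor stability and scaffolds, 4 rose and 1 fell in TLX+siCTL relative to CTL+siCTL, 3 rose and 0 fell in TLX+siTLX relative to TLX+siCTL, and 6 rose and 1 fell in TLX+siTLX relative to CTL+siCTL (medians 0.21, 0.13 and 0.29). CAV1, the coat protein of caveolae in which EGFR can reside, rose in both steps, by 0.96 ± 0.05 and 0.99 ± 0.05 (SE, adjusted p = 2.88e-06 and 6.21e-06). The mucin MUC1, a binding partner of EGFR, fell by 1.77 ± 0.10 (SE, adjusted p = 4.09e-06) in TLX+siCTL relative to CTL+siCTL, rose by 1.13 ± 0.10 (SE, adjusted p = 8.85e-05) in TLX+siTLX relative to TLX+siCTL, and was at -0.64 ± 0.10 relative to CTL+siCTL after the siRNA. SLC9A3R1, a scaffold protein also known as NHERF1, rose by 0.21 ± 0.06 (SE, adjusted p = 0.0240) in TLX+siTLX relative to TLX+siCTL. MUC4, a mucin that binds ERBB2, rose by 1.01 ± 0.18 (SE, adjusted p = 0.00242) in TLX+siCTL and by 1.31 ± 0.18 (SE, adjusted p = 0.000439) in TLX+siTLX relative to CTL+siCTL, but its symbol stands on 8 rows and its value is uncertain.

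Among 30 adaptors and kinases of the cascade, 7 rose and 8 fell in TLX+siCTL relative to CTL+siCTL, 2 rose and 2 fell in TLX+siTLX relative to TLX+siCTL, and 8 rose and 8 fell in TLX+siTLX relative to CTL+siCTL, with medians of 0.01, -0.04 and -0.04. The rises in TLX+siCTL came to 3 without S6 and 4 without S1, S2 or S4, and the falls to 5 without S1. In TLX+siTLX the 8 rises relative to CTL+siCTL came to 4 without S1, and the 2 relative to TLX+siCTL to 0 or 1 without S1 or any of S4 to S9. The docking protein GAB2 had the largest change, -1.76 ± 0.09 (SE, adjusted p = 2.90e-06) in TLX+siCTL and -1.99 ± 0.09 (SE, adjusted p = 7.41e-07) in TLX+siTLX relative to CTL+siCTL. The PI3K regulatory subunit PIK3R1 rose by 1.07 ± 0.32 and 1.36 ± 0.32 in these comparisons (SE, adjusted p = 0.0336 and 0.00945). In TLX+siTLX relative to TLX+siCTL, the phospholipase PLCG1 rose by 0.21 ± 0.06 (SE, adjusted p = 0.0350).

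Among 20 genes known as outputs of MAPK signalling, 4 rose and 11 fell in TLX+siCTL relative to CTL+siCTL, 5 rose and 10 fell in TLX+siTLX relative to TLX+siCTL, and 3 rose and 13 fell in TLX+siTLX relative to CTL+siCTL. The medians were -0.40, -0.22 and -0.31, against medians within 0.02 of 0 over the expressed rows. The transcription factor EGR1 fell by 2.35 ± 0.14 (SE, adjusted p = 5.15e-06) in TLX+siCTL relative to CTL+siCTL and fell by a further 0.85 ± 0.14 (SE, adjusted p = 0.00254) in TLX+siTLX relative to TLX+siCTL. Its partner in the early response, FOS, fell by 1.56 ± 0.10 (SE, adjusted p = 7.11e-06) in TLX+siCTL, and the urokinase receptor PLAUR fell by 1.08 ± 0.06 (SE, adjusted p = 4.80e-06), both relative to CTL+siCTL. PHLDA1 fell by 0.75 ± 0.05 (SE, adjusted p = 1.53e-05) in TLX+siTLX relative to TLX+siCTL and was at -1.55 ± 0.05 relative to CTL+siCTL, while SPRY1, a feedback inhibitor of the cascade, rose by 0.57 ± 0.12 (SE, adjusted p = 0.00900) in TLX+siTLX relative to TLX+siCTL. The receptor RNAs were thus higher than in the controls, and most of these output RNAs lower. Ligand protein, receptor phosphorylation and MAPK activity were not measured.

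**Figure D4:**
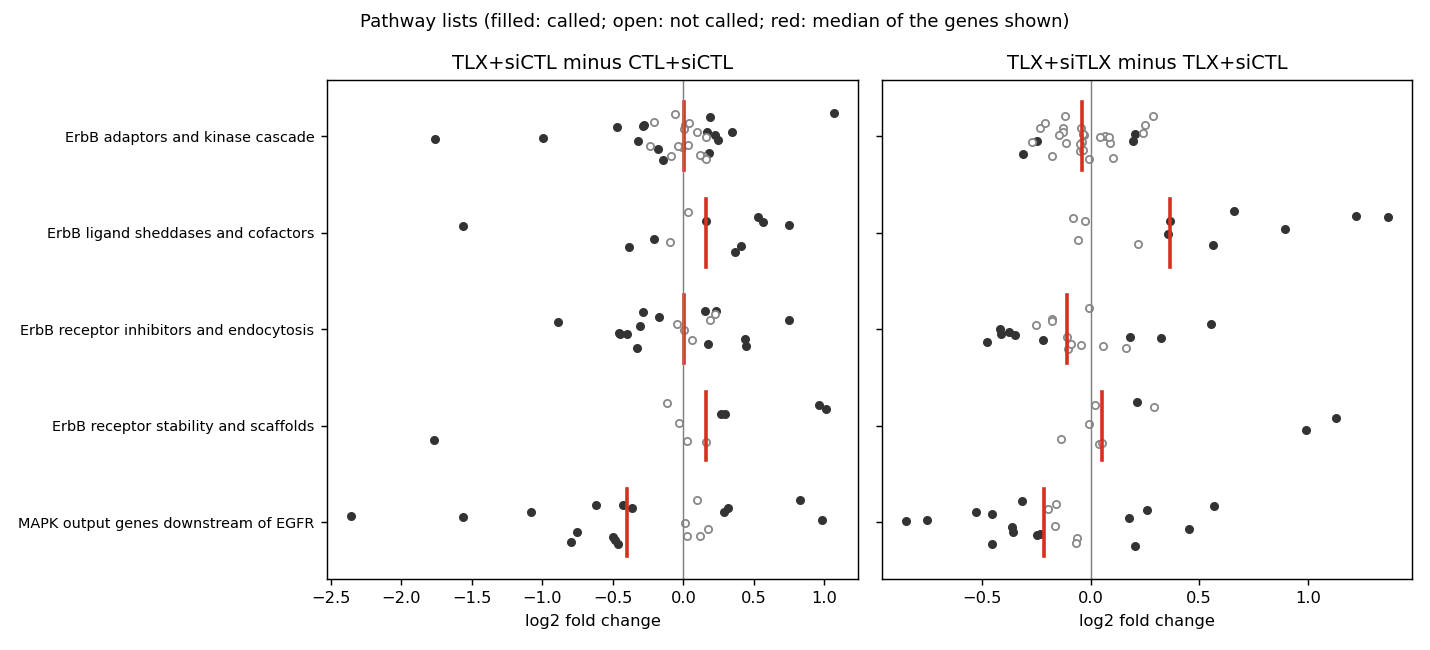
Log2 fold changes of the expressed genes of 5 lists around the ErbB receptors, for TLX+siCTL minus CTL+siCTL and TLX+siTLX minus TLX+siCTL; filled points passed an adjusted p of 0.05 and the red line is the median of the genes drawn. The median of the MAPK output list lies below 0 in both panels, with EGR1 at -2.35 and -0.85.

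EPGN, EREG, AREG and BTC form a cluster of ligand genes over 486.2 kb of chromosome 4, in which AREG starts 80.0 kb and BTC 379.6 kb after the start of EREG. The CXC chemokine genes lie beside it. Within 1 Mb on either side of the cluster 25 rows were annotated, of which 15 were expressed and 12 of these were no members. Of the 12, 0 rose and 7 fell in TLX+siCTL relative to CTL+siCTL (median log2 fold change -0.49), 2 rose and 5 fell in TLX+siTLX relative to TLX+siCTL (median -0.21), and 0 rose and 9 fell in TLX+siTLX relative to CTL+siCTL (median -0.71). Over all expressed rows 27.4%, 22.0% and 31.2% fell in these comparisons.

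The neutrophil-attracting chemokines next to the cluster fell in TLX+siCTL relative to CTL+siCTL by amounts like those of AREG and EREG, with log2 fold changes of -2.68 ± 0.14 for CXCL1, -2.60 ± 0.08 for CXCL3, -2.19 ± 0.10 for CXCL8 and -2.12 ± 0.07 for CXCL2 (SE, adjusted p of 2.78e-07 to 2.90e-06). After the siRNA, in TLX+siTLX relative to TLX+siCTL, CXCL2 (-0.91 ± 0.07), CXCL3 (-0.46 ± 0.08) and CXCL8 (-0.38 ± 0.10) fell as EREG did, and CXCL1 rose by 0.53 ± 0.14 (SE, adjusted p = 0.0255). Between CXCL2 and the ligands, MTHFD2L, a mitochondrial folate enzyme, had a log2 fold change of 0.21 ± 0.07 (SE, adjusted p = 0.0650) in the first step, which did not pass, and fell by 0.78 ± 0.07 (SE, adjusted p = 0.000126) in the second. Past BTC, PARM1 was at -0.41 ± 0.14 (SE, adjusted p = 0.0617) in the first step and fell by 1.45 ± 0.14 (SE, adjusted p = 0.000152) in the second. The falls of about 2 log2 units or more in TLX+siCTL thus stood at EREG, AREG and the chemokines, with MTHFD2L between them and BTC beside them outside that range.

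RASSF6, on the chemokine side, fell by 1.06 ± 0.16 (SE, adjusted p = 0.000813) in TLX+siCTL relative to CTL+siCTL and was at 0.47 ± 0.16 (SE, adjusted p = 0.0623) in TLX+siTLX relative to TLX+siCTL. On the side of BTC, THAP6 at -0.57 ± 0.18 (SE, adjusted p = 0.0364) and USO1 at -0.28 ± 0.03 (SE, adjusted p = 0.000149) fell in TLX+siCTL, while RCHY1 at 0.11, CDKL2 at -0.21 and G3BP2 at -0.16 did not pass. G3BP2 rose in TLX+siTLX relative to TLX+siCTL, by 0.29 ± 0.09 (SE, adjusted p = 0.0376). RCHY1 at -0.16, THAP6 at -0.25, CDKL2 at -0.17 and USO1 at -0.04 did not pass in that step. RCHY1 and THAP6 overlap at their ends on opposite strands.

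**Figure D5:**
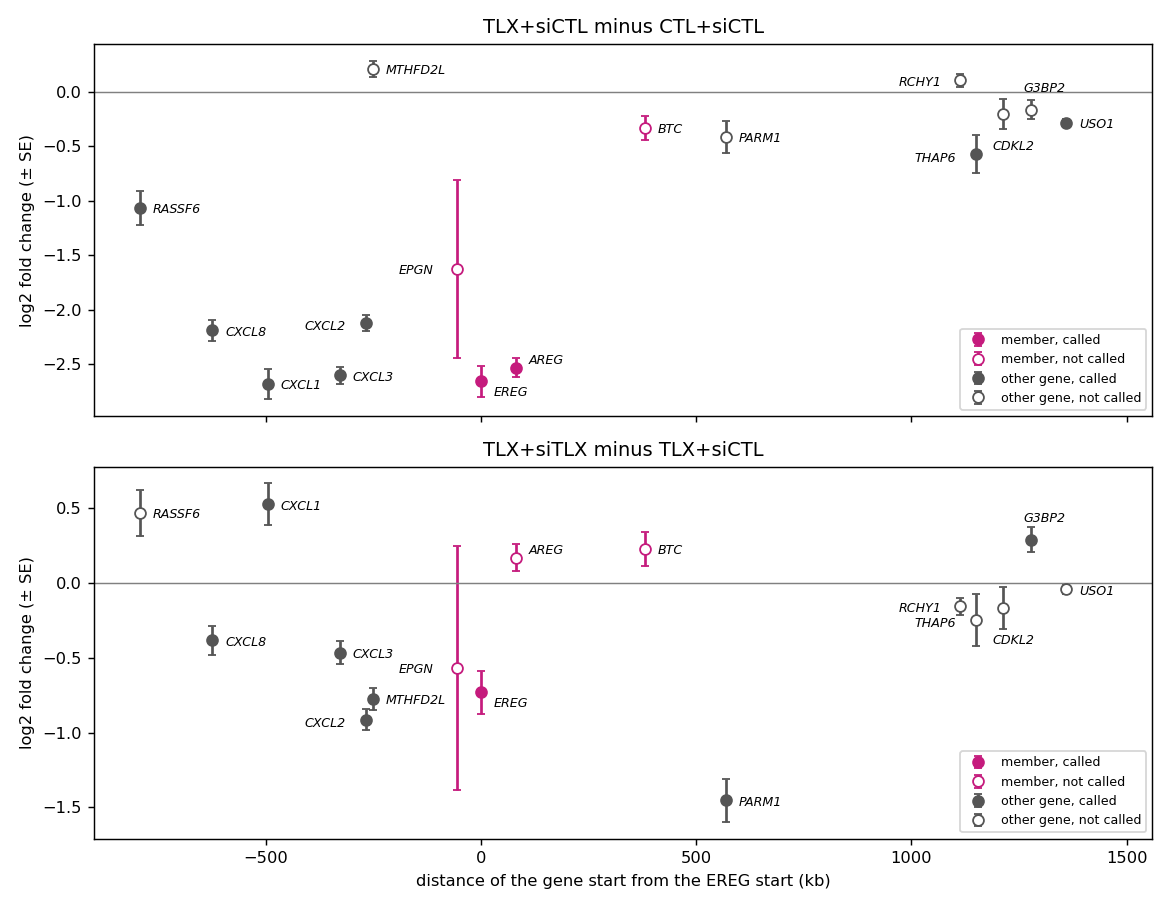
Log2 fold changes with SE of the expressed genes within 1 Mb of the ligand cluster on chromosome 4, ordered by position, with the cluster's ligands in pink. The member EPGN, which is not among the expressed rows, is drawn as well. The panels are TLX+siCTL minus CTL+siCTL and TLX+siTLX minus TLX+siCTL. EREG at -2.66 and AREG at -2.53 stand with the CXC chemokines, and BTC at -0.33 with the genes on its other side.

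The rows most like a member were those whose log2 CPM profile over the 9 libraries, centred on its mean, had the smallest root mean square difference from it, among 12555 expressed rows. For EGFR these were CNOT7 (0.0317 log2 units), KIF13A (0.0434) and WDR44 (0.0436). Of the other members TGFA was next to EGFR, at 0.0561, followed by ERBB2 at 0.115. For AREG they were TC2N (0.163), IL6 (0.189) and ANXA10 (0.191), with NRG1 the nearest member at 0.337 and EREG at 0.480. As EGFR itself ranged over 0.45 log2 units and AREG over 2.78, likeness to EGFR is measured on a much smaller scale than likeness to AREG.

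The authors' deposited table of fold changes and false discovery rates makes the same call as the fit here for all 10 members in each comparison, with 8, 3 and 7 under a false discovery rate of 0.05. In the authors' deposited table AREG has a signed fold change of -5.78 and EREG of -6.31 for TLX+siCTL against CTL+siCTL, where a minus sign marks the inverse ratio. For TLX+siTLX against TLX+siCTL, the authors' deposited table gives 1.497 for HBEGF, 1.42 for NRG1 and -1.67 for EREG.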

How the data were processed

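Expression values deposited by the authors were log2 CPM, counts scaled to library size, for 27548 rows and 9 libraries. The authors also deposited, per comparison, signed fold changes (used here as a score), p-values and false discovery rates. The tools named were edgeR, limma and kallisto 0.44.0, with build GRCh38 and no role stated, per the submitters' processing notes. Per the labels' protocols, libraries were made with a stranded mRNA kit. The lowest value of -5.33 corresponds to a prior count of 2.00, which understates fold changes of low genes. Of the low values 35.0% to 36.8% lay within 0.01 of a whole read, so reads are estimates.

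Libraries are called S1 to S9 after numbers in the column names, which match no label, and were placed by the group each column names, with 0 columns unmapped. Of all rows 2303 repeat a symbol, and 24790 were found in GENCODE 29, which gave positions and lengths. Values were tested as deposited with limma 3.58.1 in R 4.3.3, in 1 fit of the 9 libraries with a mean per group and an intensity trend, two-sided. P-values were adjusted over all 27548 rows (Benjamini-Hochberg, threshold 0.05). The fit was tested on simulated data. Expressed rows are those averaging 1 log2 CPM or more.

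The members and lists were chosen with earlier results of these data known, so their counts are descriptions. Named were all members, the 3 expressed called genes of each list with the largest change per comparison, the expressed genes within 1 Mb of the chromosome 4 ligands, and the 3 rows most like EGFR and AREG. Some genes that this rule names are not reported here. Levels between genes are CPM per kb of merged exons. Alternatives were another centring, quantile normalization, filters on low values, a pseudocount of 1, library weights, fits of 2 groups and leaving out each library.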

Additional observations from a re-analysis of the deposited data

How the results depend on the processing

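No paired analysis was possible because the columns carry no replicate number of the labels. Across the settings tried, AREG, EREG, NRG1, HBEGF, TGFA, EGFR and ERBB3 kept direction and call in TLX+siCTL relative to CTL+siCTL, with AREG at -2.63 to -2.46 and EREG at -2.75 to -2.50. With medians of expressed rows centred, ERBB2 turned to -0.00627 in TLX+siTLX relative to TLX+siCTL, and HBEGF passed in TLX+siTLX relative to CTL+siCTL (-0.15, adjusted p = 0.0360). With library weights EGFR turned to 0.000283 in TLX+siTLX relative to TLX+siCTL, and BTC passed in TLX+siCTL relative to CTL+siCTL (-0.33). BTC also passed with rows of a mean of at least 1 or of at least -3 (-0.33 in both), as did HBEGF in TLX+siTLX relative to CTL+siCTL (-0.14 in both). With at least -3, EPGN passed there too (-2.19, adjusted p = 0.0298), and the members that fell came to 5. In these filters fewer rows were adjusted over, and the fit was also redone on those rows alone. With the 2 groups compared alone, EREG no longer passed in TLX+siTLX relative to TLX+siCTL (-0.73, adjusted p = 0.0556), so 0 members fell there. The cause was not tested for any of these changes.

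Leaving out 1 library gave, in TLX+siCTL relative to CTL+siCTL, -0.40 to -0.26 for BTC and 0.17 to 0.25 for ERBB2. In TLX+siTLX relative to CTL+siCTL it gave 0.21 to 0.30 for ERBB2 and -0.186 to -0.0931 for HBEGF. For TLX+siTLX relative to TLX+siCTL it gave -0.0833 to 0.0171 for EGFR and -0.0162 to 0.0886 for ERBB2, neither of them called.

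List counts moved more. In TLX+siTLX relative to TLX+siCTL, adaptors and kinases had 2 higher and 2 lower as reported, 0 and 4 with centring, 1 and 4 with quantile normalization, 4 and 5 with a mean of at least 1, and 4 and 4 with at least -3. With 2 groups alone they had 1 higher, and MAPK output genes had 3 higher. Scaffolds had 1 lower with quantile normalization. ERBB4 and the other non-members had 0 called with log2(CPM + 1) and with 2 groups alone, were left with no row to test by a mean of at least 1, and had 2 higher with at least -3 and with library weights. In TLX+siTLX relative to CTL+siCTL, sheddases had 1 lower with quantile normalization, log2(CPM + 1), library weights and 2 groups alone, non-members had 1 higher with at least -3 and with library weights, and adaptors had 5 higher with 2 groups alone.

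Over the fits without 1 library, counts in TLX+siCTL relative to CTL+siCTL ran from 3 to 8 adaptors higher (3 without S6, 4 without S1, S2 or S4) and 5 to 9 lower (5 without S1), 3 to 6 sheddases higher (3 without S6), 5 to 8 inhibitors lower (5 without S1, S3, S4 or S5) and 0 to 1 non-members lower. Those in TLX+siTLX relative to CTL+siCTL ran from 4 to 7 adaptors higher (4 without S1), 1 to 2 sheddases lower (2 without S8), 1 to 3 scaffolds lower (3 without S7) and 0 to 1 non-members higher (1 without S7). The siRNA step, TLX+siTLX relative to TLX+siCTL, ran from 0 to 3 adaptors higher (0 without S4, S6 or S8), 0 to 1 sheddases and scaffolds lower (1 without S7) and 0 to 1 non-members higher. With the longest transcript as length, EREG was at 18.6%, 30.5% and 48.4% of the ligand sum in TLX+siTLX, TLX+siCTL and CTL+siCTL. At 73.8 M reads or more, depth limits EPGN most.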
